A study of Mus musculus with 1 sample.

Results

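The growth factor systems that signal through receptor tyrosine kinases were examined in ventral midbrain (VM)-derived mouse mixed glia. The set comprised the fibroblast growth factors (FGF) and their 4 receptors, the platelet-derived (PDGF), vascular endothelial (VEGF) and epidermal growth factor (EGF) systems, and hepatocyte growth factor (HGF), KIT ligand and their receptors. Members were taken by gene symbol, with no cut on their values, though earlier results of these data were known. Of the 23282 genes in the table, 52 belonged to the set. Of these, 37 encode ligands or FGF-family factors and 15 encode receptors.

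The study asked how an inhibitor of the kinase SGK1 alters VM glia, and 1 RNA-seq library was analysed here, labelled as control. The study's text describes the control as treated with the vehicle, DMSO. The header of its values, mAst_Cont_DMSO, names DMSO as well. The cells came from ICR(CD-1) mice, an outbred strain, labelled postnatal day 5, while the protocol gives a range from day 1 to day 5. They were grown in medium with 10% fetal bovine serum, itself a source of growth factors, and passaged after near confluence, so the cultures are not resting tissue. How many animals or cultures went into the library is not given, and libraries of inhibitor-treated cells were not analysed here. With 1 library there is no spread between cultures, no test between groups was possible, and every difference below is a difference between genes within that library.

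Receptor tyrosine kinases are single-pass membrane proteins that pair when a ligand binds and phosphorylate each other. Adaptor proteins then start the RAS-ERK cascade, which induces both transcription factors and inhibitors that feed back on the pathway. In the brain, FGF ligands act on neural progenitors and astrocytes, and PDGF-A drives oligodendrocyte precursors through PDGFRα. PDGF-B recruits pericytes through PDGFRβ, and VEGF-A guides endothelial cells through KDR. EGF receptor ligands act on progenitors and astrocytes, and neuregulins act on glia through ERBB3 and ERBB4.

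Values are the authors' normalised read counts, which sum to 27569507. The number of reads behind them is unknown, so no counting interval is given. To rank genes of different length, values were divided by the length of all annotated exons in kilobases (value per kb), and undivided values are given as the data of each gene. Detection, sums over marker lists and shares of the total use undivided values. A gene at 10 or more was taken as detected, and its percentile is its place, per kb, among the 15486 detected genes with an exon length. In a mixed culture, fewer cells of a type and less RNA per cell cannot be told apart.

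The labelled cell type was checked first. All 8 astrocyte markers were at 100 or more, from S100b at 604 to Gfap at 17222, against 51.6% of all rows at 100 or more. All 7 microglia markers were also at 100 or more, from Tmem119 at 984 to C1qa at 32619. Endothelial markers were low, with 0 of 8 at 100 or more, a summed value of 182 and Tek listed at 0. Of 9 mesenchymal or pericyte markers 6 were at 100 or more, led by Acta2 at 26499. The pericyte genes Rgs5 at 9 and Kcnj8 at 5 were under the detection minimum. Of 6 oligodendrocyte precursor markers 4 were at 100 or more, but Sox10 was at 48 and Gpr17 at 4. The proteoglycan gene Cspg4, at 2634, is a marker of both precursors and pericytes and was on both lists. Of 7 neuron markers 2 were at 100 or more, Map2 at 868 and Tubb3 at 124. Of 4 ependymal markers 3 were at 100 or more, with a summed value of 5734.

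Of the 52 members, 38 (73.1%) were at 10 or more, against 67.2% of all rows. At 100 or more stood 33 members (63.5%), against 51.6% of all rows, and 11 were at 1000 or more. Together the members held 0.115% of the sum. The 5 highest members held 54.0% of the members' sum, and Hbegf alone held 20.6%. The median of the 38 detected members was 53.9 per kb, against 102.4 per kb for detected genes in general. Per kb, 14 members were above that median and 24 detected members were below it. Most of the detected growth factor genes thus ranked in the lower part of the detected transcriptome once gene length was taken into account.

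**Figure D1:**
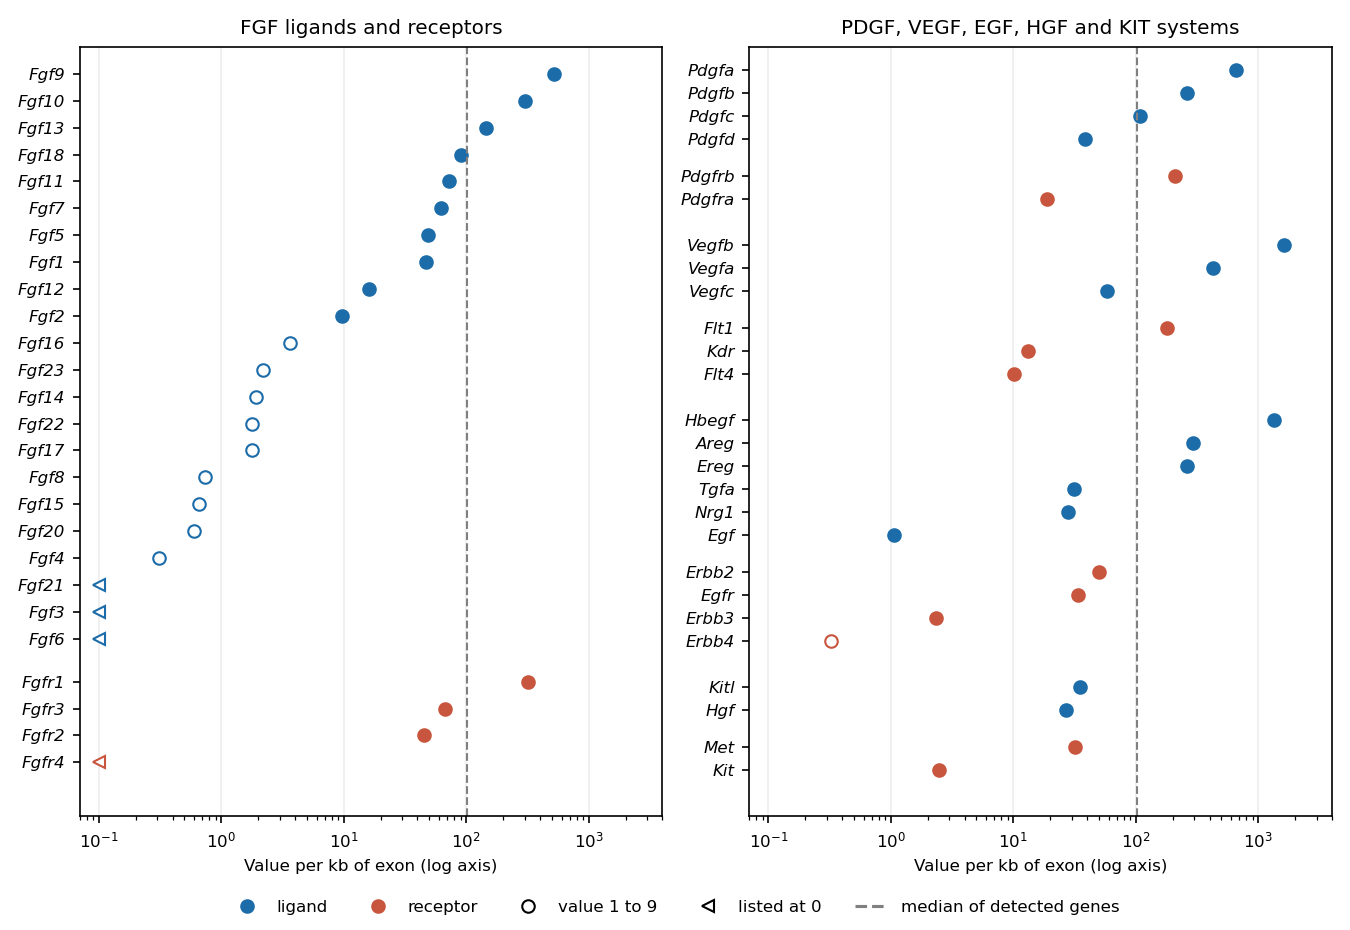
Level of each of the 52 members in the control library, as value per kb of exon on a log axis, with ligands in blue and receptors in red. Open circles are values from 1 to 9, triangles at the left edge are genes listed at 0, and the dashed line is the median of detected genes (102.4 per kb). The FGF ligands run from 0 to 522.9 per kb for Fgf9, and Vegfb (1616 per kb) and Hbegf (1352 per kb) lie farthest to the right.

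In the VEGF system the ratio of the highest receptor to the next per kb of exon was larger than in the FGF, PDGF and EGF systems, and its genes are therefore shown with the sequence before their starts. Vegfb, whose product binds FLT1, had a value of 2594, or 1616 per kb, the highest of all members per kb of exon (percentile 94.2). Per kb of the longest transcript Hbegf was higher, at 2261 against 2025, as it was per kb of coding sequence and without division by length. Vegfa, the main angiogenic factor, which binds FLT1 and KDR, had a value of 1825, or 425.9 per kb (percentile 80.0). Vegfc, the lymphatic growth factor, had a value of 142, or 58.0 per kb. Vegfb was thus 3.80 times Vegfa per kb, but 1.42 times before division by length, since its exons span 1605 bases against 4285 for Vegfa.

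Among the receptors, Flt1 had a value of 2427, Kdr 119 and Flt4 84. Flt1 encodes VEGFR1, a receptor with weak kinase activity that also exists as a soluble trap. Kdr encodes VEGFR2, the principal signalling receptor of endothelial cells, and Flt4 encodes VEGFR3 of lymphatic endothelium. Per kb, Flt1 was at 179.7, Kdr at 13.2 and Flt4 at 10.2, so Flt1 was 13.6 times Kdr and made up 88.5% of the summed VEGF receptor level. The share of Flt1 was between 88.5% and 92.4% on all 4 length scales tried. The 8 endothelial markers summed to 182 undivided, and the highest of them per kb, Egfl7, was at 15.1 per kb. Flt1 is also known from mononuclear phagocytes, and the microglia markers summed to 104149. The part of either cell type in the level of Flt1 was not tested.

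The co-receptors Nrp2 and Nrp1, which bind VEGF and semaphorins, were at 10435 and 5936, or 881.2 and 606.6 per kb, above every VEGF receptor gene. Pgf, which encodes the FLT1 ligand placental growth factor, was at 189. The VEGF-D gene, listed under its older symbol Figf, was at 62.

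The 250 bases upstream of the RefSeq gene starts (GRCm38.p6) are given for Flt1 and Kdr, for the 2 highest VEGF ligands and for Areg, an EGF-family gene chosen after its motifs were seen. Bases inside annotated exons were left out. Capitals mark matches on either strand to a TATA box (TATAAA), a GC box (GGGCGG), an AP-1 site (TGANTCA), a cyclic AMP response element (TGACGTCA) or an ETS core (CCGGAAGT), and adjoining matches run together. A match is a match of letters and not evidence of binding.

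The sequences are given 5′ to 3′ on the strand of the gene, from chr5:147726012-147726261 (minus strand) for Flt1, chr5:75978459-75978705 (minus) for Kdr, chr19:6987652-6987901 (minus) for Vegfb, chr17:46032378-46032627 (minus) for Vegfa and chr5:91139349-91139598 (plus) for Areg.
Flt1: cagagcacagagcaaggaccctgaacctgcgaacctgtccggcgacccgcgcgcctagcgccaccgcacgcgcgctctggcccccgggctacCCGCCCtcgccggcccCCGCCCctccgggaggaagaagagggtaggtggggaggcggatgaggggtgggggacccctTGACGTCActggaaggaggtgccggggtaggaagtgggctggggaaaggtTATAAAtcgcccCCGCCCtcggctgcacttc
Kdr: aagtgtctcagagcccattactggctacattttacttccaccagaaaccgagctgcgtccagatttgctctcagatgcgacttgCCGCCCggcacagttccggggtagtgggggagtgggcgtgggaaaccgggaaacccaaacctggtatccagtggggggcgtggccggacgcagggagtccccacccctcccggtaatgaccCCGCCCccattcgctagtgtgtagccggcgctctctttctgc
Vegfb: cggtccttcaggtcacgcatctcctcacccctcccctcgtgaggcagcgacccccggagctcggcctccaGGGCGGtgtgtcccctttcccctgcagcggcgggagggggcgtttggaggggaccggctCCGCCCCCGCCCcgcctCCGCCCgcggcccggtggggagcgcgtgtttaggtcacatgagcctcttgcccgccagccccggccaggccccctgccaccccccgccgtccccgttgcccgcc
Vegfa: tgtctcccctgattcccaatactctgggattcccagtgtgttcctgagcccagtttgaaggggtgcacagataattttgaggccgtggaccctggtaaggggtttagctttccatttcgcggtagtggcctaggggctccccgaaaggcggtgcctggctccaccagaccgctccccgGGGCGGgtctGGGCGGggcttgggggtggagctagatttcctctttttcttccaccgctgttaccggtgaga
Areg: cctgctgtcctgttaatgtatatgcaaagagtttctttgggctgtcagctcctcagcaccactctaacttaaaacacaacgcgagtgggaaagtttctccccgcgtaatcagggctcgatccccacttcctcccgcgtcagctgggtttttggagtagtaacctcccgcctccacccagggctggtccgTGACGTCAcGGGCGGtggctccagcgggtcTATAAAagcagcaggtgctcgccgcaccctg

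The windows of Flt1 and Areg held 3 and 1 GC boxes, and each also held a TATA box and a cyclic AMP response element. They were the only 2 of the 51 member windows (3.92%) with that element, and Areg is shown for this reason. The window of Kdr held 2 GC boxes and none of the other motifs, and those of Vegfb and Vegfa held 4 and 2 GC boxes alone. Across all 32851 RefSeq windows of 250 bases, 12.4% held the TATA box, 32.7% the GC box, 6.75% the AP-1 site, 1.55% the cyclic AMP response element and 2.88% the ETS core.

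Windows were available for 39 of the 52 members (51 windows, since some genes have several starts), and Hbegf, Fgfr1, Pdgfb, Pdgfrb, Ereg, Nrg1, Erbb3, Fgf1, Fgf8, Fgf15, Fgf16, Fgf17 and Fgf20 had none. The GC box was in 33 of the 51 member windows (64.7%). It was in 23 of 36 windows of members at 100 or more (63.9%) and in 6 of 9 windows of members under 10 (66.7%), shares that lay close together. The ratio of observed to expected CG dinucleotides had a median of 0.699 in the windows of members at 100 or more and 0.473 in those of members under 10, against 0.374 over all windows. The ranges of the high and low members overlapped, at 0.154 to 1.02 and 0.298 to 0.681. Each of these figures is a description over related genes.

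In the EGF system, the leading ligands stood above all 4 receptors per kb. Hbegf, which encodes a membrane-anchored ligand of EGFR and ERBB4, had the highest value of all members at 6534, or 1352 per kb (percentile 93.1). Ereg (epiregulin) was at 1079 and Areg (amphiregulin) at 353, and per kb they were close, at 261.4 and 290.5. Their order depended on length: per kb of coding sequence Ereg was 4.68 times Areg, the exons of Ereg spanning 4128 bases with 486 coding and those of Areg 1215 with 744 coding. Tgfa was at 204 (31.4 per kb) and Nrg1, the main neuregulin gene, at 287 (27.7 per kb). Egf itself was at 12, or 1.06 per kb (percentile 0.113).

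Hbegf was 39.9 times Egfr per kb of exon, 98.99 times per kb of coding sequence and 17.0 times without division by length. Egfr, the receptor for most of these ligands, had a value of 384 (33.9 per kb, percentile 27.7), and Erbb2, a co-receptor with no ligand of its own, had 259 (49.7 per kb, percentile 34.4). Which of them was higher depended on the length used, with Erbb2 at 57.6% of the summed receptor level per kb of exon and 38.4% per kb of coding sequence. Erbb3 and Erbb4, the receptors that bind neuregulin, were at 14 and 4, just above and below the detection minimum, while Nrg1 was at 287. Of the other EGF-family ligand genes, Nrg2 was at 33.8 per kb (value 106) and Nrg3 at 25.1 per kb (value 171). Per kb of exon these were close to Nrg1 and Tgfa, but without division by length they were below Nrg1 (287) and Tgfa (204). Nrg4 was at 36, Btc at 11 and Epgn at 9, each under 6 per kb.

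Adam10 and Adam17, the proteases that release EGF-family ligands from the membrane, were at 4875 and 4325, or 992.3 and 604.6 per kb. The iRhom genes that mature ADAM17 differed, with Rhbdf2 at 417.5 per kb (value 2210) and Rhbdf1 at 120.6 per kb (value 655). Of the 12 genes for ligand processing, 9 were at 100 or more, against 51.6% of all rows. The other 3 were listed at 0 (Plg, Hgfac and Spint1). The list had a median of 269.0 per kb. Its highest members per kb were Plau (2226), Adam10 and Adam17, and Plat, the tissue plasminogen activator that cleaves PDGF-C, was at 3417.

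**Figure D2:**
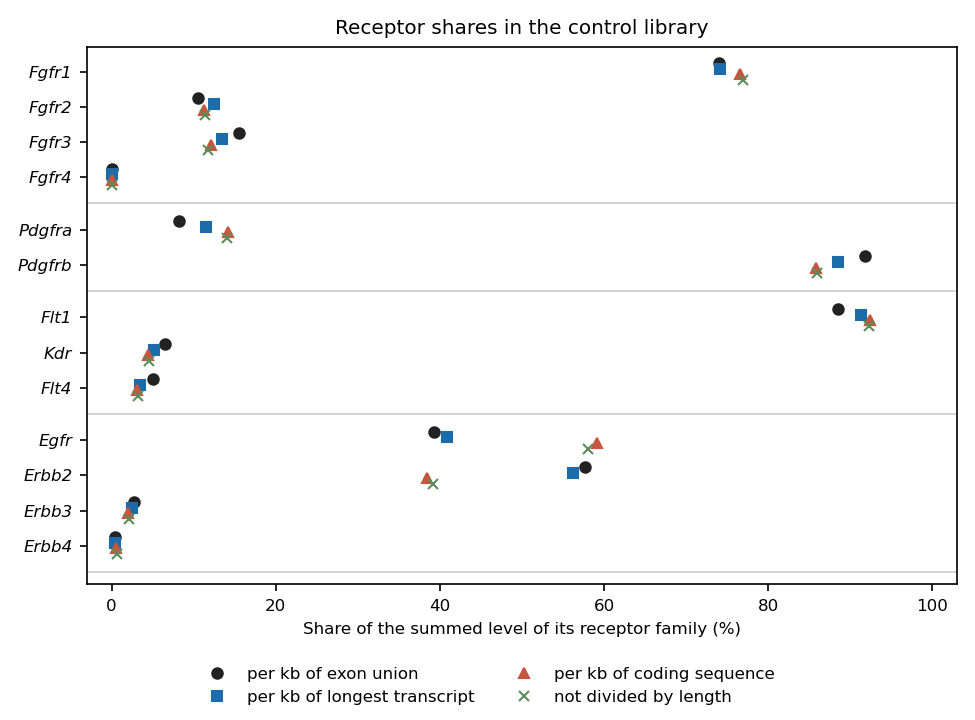
Share of each receptor in the summed level of its family (%), computed per kb of exon union, of the longest transcript, of the longest coding sequence, and without division by length. Fgfr1, Pdgfrb and Flt1 lead their families on all 4 scales, while Egfr and Erbb2 change places.

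In the PDGF system, all 6 genes were detected at 100 or more, against 51.6% of all rows. Pdgfa had a value of 2051 (657.6 per kb, percentile 86.2), Pdgfb 1087 (261.2 per kb), Pdgfc 555 (109.1 per kb) and Pdgfd 122 (38.7 per kb). Pdgfa was 2.52 times Pdgfb per kb. A total of 26.1% of the Pdgfa exon bases overlap an antisense transcript that has no row in the table, so reads of that transcript could add to the value of Pdgfa if counting ignored strand.

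Of the receptors, the one that PDGF-A does not use was the higher. Pdgfrb, which binds PDGF-B and PDGF-D and marks pericytes and other mesenchymal cells, had a value of 1150 (209.9 per kb, percentile 66.3). Pdgfra, the receptor that PDGF-A binds and a marker of oligodendrocyte precursors, had a value of 188 (18.8 per kb, percentile 18.7). Pdgfrb was 11.2 times Pdgfra per kb of exon and 6.04 times per kb of coding sequence. Beside these values, the mesenchymal or pericyte list summed to 58175, led by Acta2 at 26499, Col1a1 at 16915 and Col1a2 at 8468. On the same list Abcc9 was at 25, Rgs5 at 9 and Kcnj8 at 5. The precursor list summed to 3748, of which Cspg4, on both lists, gave 2634. The part of these cell types in the receptor levels was not tested.

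Pdgfra, Kit and Kdr are neighbours on chromosome 5, with 376.7 kb between Pdgfra and Kit and 276.1 kb between Kit and Kdr. All 3 receptor genes in this stretch were low, at 18.8, 2.47 and 13.2 per kb. Of their paralogs elsewhere in the set, Pdgfrb at 209.9 per kb and Flt1 at 179.7 per kb were higher. Flt4, on chromosome 11, was at 10.2 per kb, below Kdr. Flt1 lies on the same chromosome but far away, at 147561604 to 147726011.

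In the FGF system, 10 of the 22 ligands and 3 of the 4 receptors were detected, against 67.2% of all rows. Fgf9, a glia-activating factor first found in glioma cultures, had a value of 2431 (522.9 per kb, percentile 83.2). Fgf10, a ligand of the IIIb form of FGFR2 best known from lung and limb buds, had a value of 1386 (301.2 per kb, percentile 74.0). These were the 2 highest FGF ligands per kb. Fgf2, the classic astrocyte mitogen, was at 66 (9.73 per kb, percentile 10.8), and Fgf9 exceeded it 53.7-fold per kb of exon, 27.3-fold per kb of coding sequence and 36.8-fold without division by length. The exons of Fgf2 overlap those of Nudt6 on the opposite strand (13.2% of its exon bases overlap other genes), and Nudt6 was at 233.

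The ligands were then grouped by the known sequence subfamilies, which hold close paralogs. In the Fgf9 subfamily, Fgf9 was at 2431, Fgf16 at 6 and Fgf20 at 1, so Fgf9 held 99.2% of the level per kb. In the Fgf7 subfamily, Fgf10 was at 1386, Fgf7 at 204, Fgf22 at 4 and Fgf3 at 0, and Fgf10 held 82.3%. In the Fgf8 subfamily, which patterns the midbrain in the embryo, Fgf18 was at 108, Fgf17 at 3 and Fgf8 at 1, and Fgf18 held 97.3%. Each of these subfamilies was dominated by 1 gene.

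In the Fgf4 subfamily, Fgf5 was at 123, Fgf4 at 1 and Fgf6 at 0, and Fgf5 held 99.4%. In the Fgf1 subfamily, Fgf1 was at 255 and Fgf2 at 66, and Fgf1 held 82.7%. No member shared more than 0.8% of its 50-base transcript words with other genes on the same strand except Fgf2 (2.99%), Fgfr2 (2.47%) and Hgf (6.02%), each of which overlaps another annotated gene on its own strand. If strand was ignored in counting, overlaps on the opposite strand raise the shared part to 21.3% for Fgf15 and for Pdgfa, and to 11.6% for Fgfr3.

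The 4 intracellular factors, which do not activate FGF receptors and bind sodium channels, were detected in 3 of 4 cases, against 67.2% of all rows. Fgf13 was at 583 (145.1 per kb), Fgf11 at 222 (72.9 per kb), Fgf12 at 100 (16.1 per kb) and Fgf14 at 8. The 3 endocrine factors, which need a Klotho co-receptor and act between organs, were all under the minimum, with Fgf23 at 4, Fgf15 at 2 and Fgf21 at 0. Their co-receptor genes were also there, with Klb at 7 and Kl listed at 0.

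Of the 12 undetected FGF ligands, 5 are neighbours of another undetected one. Fgf3, Fgf4 and Fgf15 lie in a row on chromosome 7, between 144838083 and 144900953, and had values of 0, 1 and 2. Fgf6 and Fgf23 lie 44.7 kb apart on chromosome 6 and had values of 0 and 4. The detected pair Ereg and Areg, 45.95 kb apart on chromosome 5, had values of 1079 and 353. In all, 4 members were listed at 0 (Fgf3, Fgf6, Fgf21 and Fgfr4) and 10 had values from 1 to 9.

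Among the FGF receptors, Fgfr1 had a value of 3171 (321.1 per kb, percentile 75.1). Fgfr3, an astrocyte-enriched receptor, had 484 (67.6 per kb), Fgfr2 had 470 (45.5 per kb) and Fgfr4 was listed at 0. Fgfr1 thus made up 74.0% of the summed receptor level, and between 74.0% and 76.9% on the 4 length scales. The order of Fgfr3 and Fgfr2 cannot be weighed without a replicate. An antisense gene overlaps part of the Fgfr3 exons (13.9% of bases), and Fgfr2 shares exon sequence with Ctbp2, which was at 1732. The decoy receptor gene Fgfrl1, whose product lacks a kinase domain, was at 1373, or 493.5 per kb of exon. Which of Fgfrl1 and Fgfr1 was higher depended on length. Per kb of exon Fgfrl1 stood above Fgfr1, at 493.5 against 321.1, but without division by length Fgfr1 was higher, at 3171 against 1373.

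Of the 9 FGF co-factor genes, 7 were detected, against 67.2% of all rows. Per kb, 1 (Fgfrl1) was above the median of detected genes. Flrt2 was at 399 and Frs2, the adaptor that couples FGF receptors to RAS, at 316. The whole list had a median of 17.9 per kb.

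The HGF and KIT systems were low in both ligands and receptors. Kitl was at 209 (35.4 per kb) and its receptor Kit, a marker of mast cells and haematopoietic progenitors, at 22 (2.47 per kb, percentile 1.35). Hgf was at 194 (27.0 per kb) and its receptor Met at 243 (31.6 per kb). All 4 lay below the median of detected genes. Of the genes that process HGF, St14 was at 486 and its inhibitor Spint2 at 235, while the activator Hgfac and the inhibitor Spint1 were listed at 0.

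All 18 adaptor and RAS-ERK cascade genes were at 100 or more, against 51.6% of all rows. Their median was 304.9 per kb, and 14 of the 18 were above the median of detected genes. Mapk3, which encodes ERK1, was at 5123 (2270 per kb), the adaptor Grb2 at 3815 (1308 per kb) and the ERK kinase gene Map2k2 at 4894 (864.2 per kb). Braf was lowest, at 472 (34.1 per kb).

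Of the ETS factors that ERK signalling induces, Etv4 was at 7548 (2432 per kb, percentile 96.3), above every growth factor gene and every receptor gene of the set per kb. Etv5 was at 1719 (419.0 per kb) and Etv1 at 357 (26.9 per kb). Of 15 feedback inhibitors 14 were at 100 or more, against 51.6% of all rows. Those 14 had a median of 99.3 per kb, against 102.4 per kb for detected genes. Spry3, at 0 and with no exon length, was left out of the median. Counted at 0, it would make Dusp4, at 78.5 per kb, the middle gene. Dusp6, an ERK phosphatase, was at 1360 (434.2 per kb), Spred1 at 2166 (319.3 per kb) and Lrig1, which promotes ERBB receptor degradation, at 1516 (271.4 per kb). Spry2 was at 305, Spry1 at 173 and Spry4 at 133, and Spry3 was listed at 0.

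**Figure D3:**
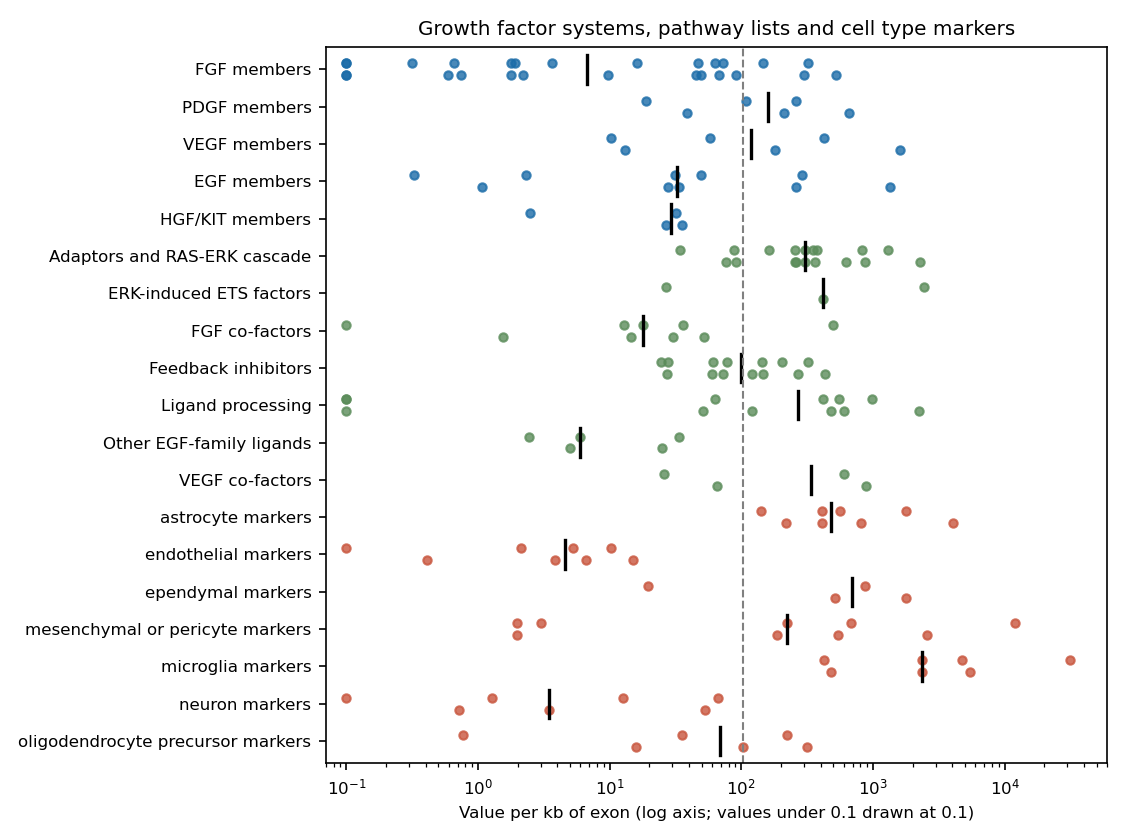
Value per kb of exon on a log axis for the members by family (blue), the pathway lists (green) and the cell type markers (red), 1 point per gene, with a black bar at the median of each list and a dashed line at the median of detected genes. The adaptor and RAS-ERK list (median 304.9 per kb) lies to the right of the FGF members (median 6.69 per kb), and the endothelial markers (median 4.57 per kb) lie far to the left. Spry3 has no exon length and is not drawn.

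By family, the median over all members was 159.5 per kb for PDGF, 118.9 for VEGF, 32.7 for EGF, 29.3 for HGF and KIT, and 6.69 for FGF. The order of the first families depended on length, since without division the median was 983.5 for VEGF and 821.0 for PDGF. The FGF median includes 12 ligands under the minimum and Fgfr4 at 0. Summed over genes, ligands exceeded receptors in each of these families, with 2100 against 203.1 per kb for VEGF and 1964 against 86.3 per kb for EGF. For PDGF the sums were 1067 and 228.7 per kb, and for FGF, intracellular factors included, 1331 and 434.2 per kb. The size of the excess depended on length. Without division by length the ligand and receptor sums were 4561 and 2630 for VEGF and 8469 and 661 for EGF. They were 3815 and 1338 for PDGF and 5508 and 4125 for FGF. The FGF sums set 22 ligand genes against 4 receptor genes, and the medians ran the other way, at 2.93 per kb for the ligands and 56.6 per kb for the receptors. These sums rest on normalised values and say nothing of protein amounts.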

How the data were processed

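RNA was extracted with Trizol and a SMARTer mRNA kit was used for the library. According to the study's methods, low-quality bases (score under 20) were removed, STAR aligned the reads to GRCm38/mm10, and HTSeq-count assigned them to exons of RefSeq Release 105. The submitters' processing notes name TopHat and edgeR instead, and the difference could not be resolved. The deposited values are whole numbers that the authors call normalised read counts. The study's methods also describe FPKM values, which are scaled by exon length. The deposited whole numbers sum to 27569507, and if they had already been scaled by length, the comparisons without division by length would apply. The formula of the normalisation, the strand setting and the treatment of multi-mapped reads are not given in the sources used here, so the deposited values were handled as a score and not as raw counts. Of the values from 2 to 21, 1752 were even and 1325 odd. This imbalance was noticed after the table was read and its cause was not tested.

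Exon unions, longest transcripts, coding lengths and overlaps came from GENCODE M21 (GRCm38), matched by symbol or RefSeq synonym for 22898 of 23282 rows. Shared sequence was counted as 50-base words of annotated transcripts. Promoter windows came from RefSeq (GRCm38.p6). The members and lists were chosen with earlier results of these data known. Every member is accounted for. From each pathway list the 3 highest genes per kb and the lowest are named, as are all genes of lists of up to 6, and further list genes and the motifs were chosen after the values were seen. A planned display of protein sequences was replaced by promoter windows. With 1 library no test was made. Helper functions were tested on simulated data. Python 3.11.15, numpy 2.4.6, pandas 2.3.3 and matplotlib 3.10.9 were used.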

Additional observations from a re-analysis of the deposited data

How the results depend on the processing

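The summaries were recomputed with other detection minima, other lengths, other sums and without members that overlap other genes. A count, rank or share was taken as moved when it changed by more than 1.5 times or when another gene came first, since no replicate gives a spread. Of 74 such checks 68 did not move and 6 did. Some could not move, since every PDGF and VEGF ligand was at 100 or more. A fall from 3 to 2 VEGF receptors at a minimum of 100 counted as unmoved. So did the share of Erbb2, at 57.6% per kb of exon and 39.2% without division by length. Without the members whose exons overlap another gene, 24 of the remaining 34 members were detected, a lower count because fewer genes were counted. At a minimum of 1, 19 FGF ligands counted as detected in place of 10. At a minimum of 100, 1 of the HGF and KIT receptors remained. Erbb2, first of the EGF receptors per kb of exon, was in place 2 per kb of coding sequence and also without division by length, and its share was 38.4% per kb of coding sequence. Detected members numbered 48, 44 and 33 at minima of 1, 3 and 100. The share of the sum was 0.118% without Rn45s and 0.133% without the 10 highest rows.

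Of 109 checks on the percentiles of single members, 7 crossed the middle of the detected genes. These were Fgf13 (45.7) and Pdgfc (37.6) among genes at 100 or more, Fgf18 (54.6) and Fgf11 (50.3) among genes at 1 or more, and Fgfr3 (50.7), Fgfr2 (50.1) and Areg (44.2) without division by length. Shifts that stayed on 1 side of the middle counted as unmoved, however large. Flt1 went from 62.9 to 86.1 without division by length. Among genes at 100 or more, Kdr went from 14.1 to 1.00 and Pdgfra from 18.7 to 2.83. The unknown read depth and the lack of a replicate limit every low value here.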
